A study of Mus musculus with 48 samples.

Results

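The 7 genes described here, Wfs1, Fibcd1, Pou3f1, Mpped1, Lefty1, Nov and Spink8, are known for enriched expression in pyramidal neurons of hippocampal area CA1. They were chosen by name for that, matched from the Ensembl identifiers of the count files, and 7 of 7 were found among the 47569 identifiers present in both RNA materials. Nov carries the current symbol Ccn3. The study compared adult C57BL/6J mice of 4 to 6 months labelled Setd1b cKO, for a conditional knockout of Setd1b, with mice labelled Control. For RNA, 3 libraries of each genotype were made from hippocampal CA neurons and 6 of each from whole CA tissue. Histone marks were profiled in CA neurons, with 4 libraries of each genotype for H3K4me3 and H3K4me1, 4 cKO and 3 control libraries for H3K27ac, and 3 cKO and 4 control libraries for H3K9ac. The Cre driver is not named in the labels; the study is known to have used a CamKII promoter, which is active in excitatory forebrain neurons.

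The Setd1b protein is a histone methyltransferase acting on lysine 4 of histone H3, and the trimethylated residue, H3K4me3, marks the starts of active genes. CA1 pyramidal neurons are the main output cells of the hippocampus proper, and the 7 genes serve as their markers in the adult brain, although none is limited to these cells in every context. A loss of CA1 cells alone would lower genes made only in those cells by 1 common factor and leave their ratios within a library as they were. The question asked of the data was whether the 7 genes moved together in that way.

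By role, Lefty1 is a secreted inhibitor of Nodal signalling, Nov is a secreted matricellular protein of the CCN family, and Spink8 belongs to the Kazal-type serine peptidase inhibitors. Wfs1 encodes wolframin, a membrane protein of the endoplasmic reticulum, and Fibcd1 a membrane receptor with a fibrinogen-like domain. Pou3f1 is a POU-domain transcription factor and Mpped1 a protein with a metallophosphoesterase domain. On GRCm38.p6 the genes lie at chr1:180935022-180938401 (Lefty1), chr15:54745910-54753762 (Nov), chr9:109812203-109826628 (Spink8), chr5:36966104-36988982 (Wfs1), chr2:31813290-31846964 (Fibcd1), chr4:124657646-124660655 (Pou3f1) and chr15:83779472-83858487 (Mpped1). The RNA kit does not mark strand. In RefSeq 2 long noncoding RNA genes overlap the span of Mpped1, 1 overlaps that of Lefty1 and 1 protein-coding model overlaps that of Spink8. Reads of these neighbours could be mixed with those of the member only where exons overlap, which was not checked.

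The start sites of 3 members were in the RefSeq promoter table, and their upstream sequences are shown because H3K4me3 is also described start by start below. Each run is the 250 bases before the start on GRCm38.p6, 5′ to 3′ on the gene's strand, with every CG dinucleotide in capitals.
Wfs1, chr5:36988983-36989232, minus strand: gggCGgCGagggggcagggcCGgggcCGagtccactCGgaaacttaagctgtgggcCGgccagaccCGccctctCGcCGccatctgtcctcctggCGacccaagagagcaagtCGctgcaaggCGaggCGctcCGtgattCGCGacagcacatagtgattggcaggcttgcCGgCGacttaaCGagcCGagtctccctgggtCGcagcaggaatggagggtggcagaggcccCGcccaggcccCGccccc
Fibcd1, chr2:31846006-31846255, minus strand: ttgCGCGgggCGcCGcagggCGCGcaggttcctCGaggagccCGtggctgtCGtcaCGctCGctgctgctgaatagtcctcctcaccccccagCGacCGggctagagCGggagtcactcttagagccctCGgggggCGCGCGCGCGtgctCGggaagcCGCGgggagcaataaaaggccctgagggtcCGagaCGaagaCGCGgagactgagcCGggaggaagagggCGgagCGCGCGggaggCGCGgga
Mpped1, first start, chr15:83779773-83780022, plus strand: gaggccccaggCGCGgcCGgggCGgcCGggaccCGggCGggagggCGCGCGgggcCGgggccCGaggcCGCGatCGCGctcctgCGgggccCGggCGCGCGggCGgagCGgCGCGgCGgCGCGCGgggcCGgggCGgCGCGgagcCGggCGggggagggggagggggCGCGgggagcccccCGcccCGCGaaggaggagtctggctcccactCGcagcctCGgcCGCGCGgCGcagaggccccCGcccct
Mpped1, second start, chr15:83784579-83784828, plus strand: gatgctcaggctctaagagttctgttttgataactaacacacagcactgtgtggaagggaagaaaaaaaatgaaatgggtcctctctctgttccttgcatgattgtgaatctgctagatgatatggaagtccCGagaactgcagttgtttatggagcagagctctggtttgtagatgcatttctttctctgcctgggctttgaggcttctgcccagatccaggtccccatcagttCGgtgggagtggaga
The Wfs1 run holds 23 CG, the Fibcd1 run 34 and the run before the first Mpped1 start 47, against a median of 6 over 32851 starts. The run before the second Mpped1 start holds 2 CG, and 81.2% of all starts have as many or more.

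Neuron RNA libraries held 55.7 to 69.1 M reads and whole CA libraries 14.9 to 20.1 M reads, and no member had fewer than 82 reads in any library. All 7 were thus expressed in both materials. Levels are CPM, read counts relative to library size, scaled by trimmed mean of M-values (TMM) factors, and differences are cKO minus control on the log2 scale from edgeR's quasi-likelihood test, with its standard error (SE) and Benjamini-Hochberg adjusted p over all genes. The whole-gene count of Setd1b did not fall in the libraries labelled cKO: it differed by 0.25 in neuron RNA (SE 0.13, adjusted p = 0.361) and was higher by 0.59 in whole CA RNA (SE 0.11, adjusted p = 0.00415). A whole-gene count also covers exons outside any deleted part, so it does not check the deletion, and every direction below rests on the library labels. In bulk RNA, fewer cells of a type and less RNA per cell cannot be told apart.

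In neuron RNA 3 of the 7 genes fell and 4 did not pass the test. Wfs1, Lefty1 and Spink8 each fell to less than 0.5 of the control level in the libraries labelled cKO, whereas Fibcd1, Pou3f1, Mpped1 and Nov were not called. Over all 19622 genes tested, 2.75% were called and 2% were called lower. The median difference over the members was −0.24 on the log2 scale, against 0.02 over all genes tested. On data simulated at this design with gene-specific dispersions, false calls ran above the nominal rate, so neuron calls are less certain than their adjusted p states.

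Wfs1 stood at 151, 142 and 129 CPM in the control neuron libraries and at 65.2, 62.6 and 67.5 CPM in those labelled cKO. Every cKO library lay below every control library, which 12.4% of all genes also showed. The level fell by 1.11 on the log2 scale (SE 0.09, adjusted p = 0.000219), a change of −53.8%. Lefty1 stood at 10.3, 9.51 and 9.04 CPM in controls and at 4.52, 4.26 and 5.21 CPM in cKO libraries, again without overlap. It fell by 1.05 (SE 0.11, adjusted p = 0.00113). Spink8 stood at 12.1, 15.3 and 13.1 CPM in controls and at 5.58, 5.57 and 5.60 CPM in cKO libraries, so that the latter were closely grouped. It fell by 1.27 (SE 0.11, adjusted p = 0.000375). Leaving out any 1 of the 6 libraries kept all 3 calls.

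The other 4 genes had overlapping genotypes in neuron RNA. Fibcd1 stood at 300, 252 and 243 CPM in controls and 248, 222 and 283 CPM in cKO libraries, a difference of −0.08 (95% interval −0.34 to 0.19, adjusted p = 0.77). Mpped1 stood at 218, 192 and 212 CPM against 186, 201 and 203 CPM, a difference of −0.08 (95% interval −0.28 to 0.12, adjusted p = 0.696). Nov stood at 154, 172 and 173 CPM against 154, 172 and 178 CPM, a difference of 0.01 (95% interval −0.20 to 0.22, adjusted p = 0.962). The intervals of these 3 genes do not reach the falls of Wfs1, Lefty1 or Spink8. Pou3f1 stood at 37.2, 35.5 and 32.6 CPM against 26.3, 29.3 and 33.3 CPM, a difference of −0.24 (95% interval −0.48 to −0.01, adjusted p = 0.278). Its highest cKO library exceeded the lowest control library. Scaling by 5 genes of excitatory neurons instead of TMM raised the median over all genes from 0.02 to 0.25 and turned Fibcd1 and Mpped1 to 0.15 each, still not called. That set includes Neurod6, which itself fell by 2.24, and all 5 genes had a difference below 0, up to −0.07. Their summed level had a mean of 3148 CPM in control neurons and 2685 CPM in cKO neurons.

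**Figure D1:**
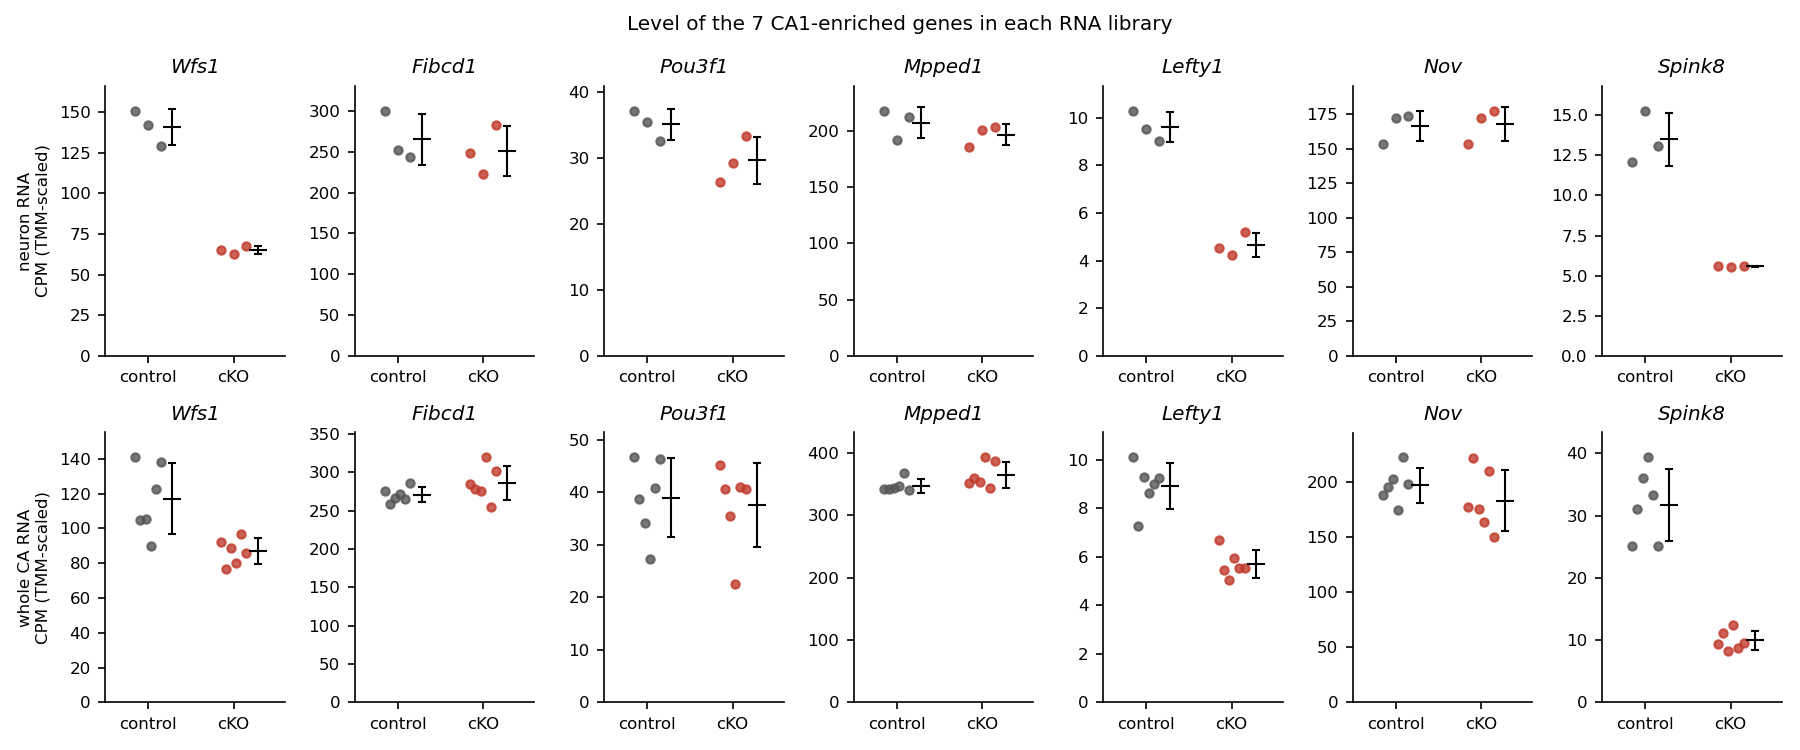
Level of each gene in each RNA library (vertical axes, TMM-scaled CPM from 0, each panel with its own range), in neuron RNA (upper row, n = 3 per genotype) and whole CA RNA (lower row, n = 6); points are libraries, the bar and whiskers beside them the mean and SD. Wfs1, Lefty1 and Spink8 are lower in cKO libraries in both rows, with an overlap for Wfs1 in whole CA RNA, and the other 4 genes overlap between genotypes throughout.

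In whole CA RNA the same 3 genes were called lower and the same 4 were not called, against a background of 4.17% of 15362 genes called and 2.79% called lower. Spink8 ran from 25.1 through a median of 32.2 to 39.4 CPM in controls and from 8.29 through 9.51 to 12.5 CPM in cKO libraries. The groups lay far apart, and the level fell by 1.67 on the log2 scale (SE 0.12, adjusted p = 7.06e-08), a change of −68.6%. Lefty1 ran from 7.28 through 9.14 to 10.1 CPM in controls and from 5.04 through 5.55 to 6.70 CPM in cKO libraries. It did not overlap either and fell by 0.64 (SE 0.10, adjusted p = 0.000745). Wfs1 ran from 89.9 through 114 to 141 CPM in controls and from 76.8 through 87.4 to 96.8 CPM in cKO libraries. These ranges overlapped, and the level fell by 0.43 (SE 0.10, adjusted p = 0.0122), a change of −25.8%. Thus 2 of the 7 genes had every cKO library below every control library, as had 1.93% of all genes.

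Fibcd1 ran from 258 to 286 CPM in controls and from 255 to 320 CPM in cKO libraries, a difference of 0.08 (95% interval −0.04 to 0.19, adjusted p = 0.565). Mpped1 ran from 340 to 368 CPM against 344 to 394 CPM, a difference of 0.07 (95% interval −0.03 to 0.17, adjusted p = 0.531). Nov ran from 175 to 223 CPM against 150 to 222 CPM, a difference of −0.11 (95% interval −0.28 to 0.07, adjusted p = 0.625). None of these intervals reaches the estimated difference of Wfs1, the smallest of the called genes. The interval of Wfs1 itself (95%, −0.63 to −0.23) overlaps that of Nov. Pou3f1 ran from 27.3 to 46.7 CPM in controls and from 22.5 to 45.2 CPM in cKO libraries. Its difference was −0.05 (95% interval −0.35 to 0.25, adjusted p = 0.92), the widest interval of the 7. Scaling by the 5 excitatory genes moved the median of all genes to 0.11 and turned Pou3f1 (0.068) and Nov (0.011) above 0, still not called. The sequencing lane in the names of the deposited files separates replicates 1 to 3 from replicates 4 to 6. Within the first lane Spink8 alone stayed called (Wfs1 −0.45, adjusted p = 0.0719; Lefty1 −0.63, adjusted p = 0.122); within the second lane Spink8 and Lefty1 did (Lefty1 −0.65, adjusted p = 0.0387; Wfs1 −0.41, adjusted p = 0.186). The sizes were close to those over all 12 libraries.

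**Figure D2:**
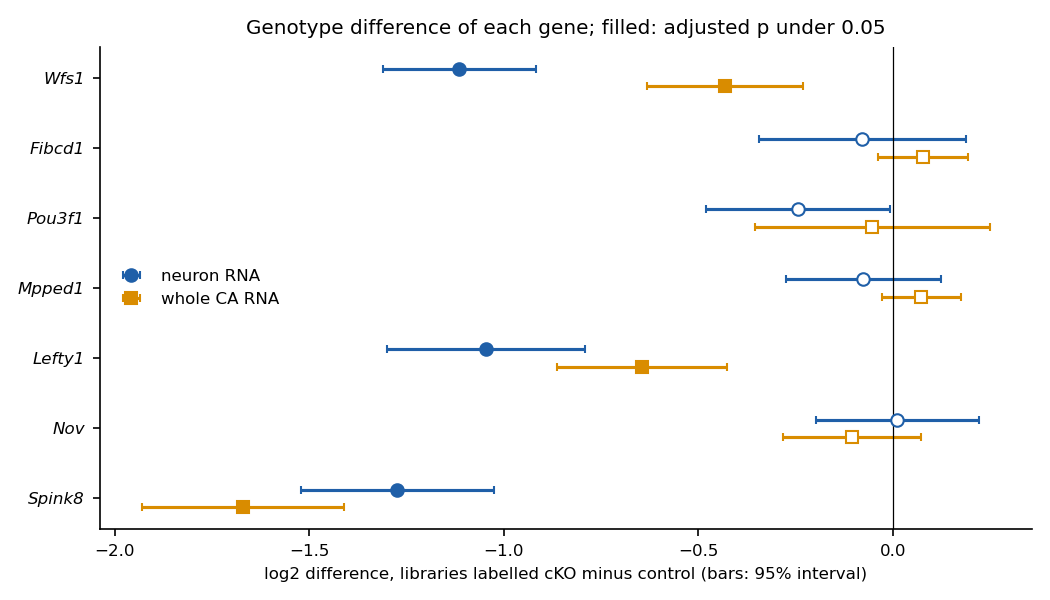
Log2 difference of each gene between libraries labelled cKO and control (horizontal axis) with its 95% interval from edgeR, in neuron RNA (circles) and whole CA RNA (squares); filled symbols have an adjusted p under 0.05. Wfs1, Lefty1 and Spink8 lie left of 0 in both materials, from −1.67 to −0.43, and the other 4 genes between −0.24 and 0.08.

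The genotype difference was then compared between materials in 1 fit of the 18 RNA libraries, in which 0.16% of 17523 genes were called. None of the 7 genes was called by edgeR, and 3 had an unadjusted p under 0.05. Wfs1 had a difference of differences (neuron minus whole CA) of −0.68 on the log2 scale (95% interval −0.99 to −0.36, adjusted p = 0.092). Leaving out whole CA control 1 (adjusted p = 0.0357) or whole CA control 6 (adjusted p = 0.0422), the 2 highest control libraries for Wfs1, or testing all genes without a filter (adjusted p = 0.00032), brought it under the threshold. Lefty1 differed by −0.39 (adjusted p = 0.572) and Spink8 by 0.41 (adjusted p = 0.614), the opposite direction. The falls in whole CA RNA ran from Spink8 through Lefty1 to Wfs1, the latter pair with overlapping intervals, and in neurons the intervals of the 3 genes overlapped.

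Among control libraries, 4 of the 7 genes were lower in neuron RNA than in whole CA RNA, where 83% of all genes were called and 39.8% were called lower. The difference, neuron minus whole CA, was −1.41 on the log2 scale for Spink8 (adjusted p = 2.54e-09), −0.92 for Mpped1 (adjusted p = 1.75e-11), −0.42 for Nov (adjusted p = 0.000535) and −0.21 for Fibcd1 (adjusted p = 0.0296). Wfs1 (0.09), Lefty1 (−0.07) and Pou3f1 (−0.33) were not called. None of the 7 genes was thus called higher in neuron RNA, while markers of glia were far lower there, with a median of −5.89 over 4 astrocyte genes and −5.16 over 4 oligodendrocyte genes. Neuronal genes were mostly lower there too. Of 5 genes of all neurons 4 were called lower and 0 higher (median −1.22). Of 5 genes of excitatory neurons 4 were lower and 1 higher (−1.11), and of 8 interneuron genes 6 were lower and 1 higher (−0.80). Of 6 dentate granule markers, in contrast, 5 were called higher and 0 lower (0.69). Material, sequencing run and depth cannot be told apart in this contrast. The materials also differed in reads of mitochondrial genes, which made up 0.008 to 0.014% of neuron libraries and 3.41 to 7.05% of whole CA libraries. What this difference in RNA content adds to the contrast was not tested. With library size alone as the scale the median of all genes moved from 0.07 to 0.25, Wfs1 became higher (0.27, adjusted p = 0.0202), Lefty1 changed sign to 0.11 and Fibcd1 lost its call. The call of Fibcd1 was also lost without neuron control 2 (adjusted p = 0.137), neuron control 3 (0.174) or whole CA control 6 (0.0523), and Pou3f1 was called lower without whole CA control 3 (0.0476) or whole CA control 4 (0.0141).

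The ratio of 2 members within a library, taken on counts with 0.5 reads added, does not depend on scaling. In whole CA RNA, 12 of the 21 pairs of members had a ratio that differed between genotypes (exact permutation test over libraries, two-sided, Benjamini-Hochberg over 21 pairs), so the 7 genes did not move by 1 common factor. Of the 12 pairs that set a gene called lower against one not called, 10 differed, by up to 1.74 on the log2 scale. The pair Fibcd1 and Spink8 moved most, from a log2 ratio of 3.12 ± 0.30 (SD, n = 6) in controls to 4.85 ± 0.16 (SD, n = 6) in cKO libraries (exact p = 0.00216, the smallest this design allows; adjusted p = 0.00649). Wfs1 against Pou3f1 (adjusted p = 0.0524) and Wfs1 against Nov (adjusted p = 0.0747) missed the threshold in this exact test. Among the 4 genes not called, 0 of 6 pairs differed, and their ratios moved by 0.19 at most. Fibcd1 against Mpped1 moved by 0.004, from −0.36 ± 0.08 to −0.35 ± 0.05 (SD, n = 6 each).

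The 3 genes that fell did not keep their ratios in whole CA RNA either. Spink8 fell further than Wfs1 by 1.24 and further than Lefty1 by 1.02, both without overlap between genotypes (exact permutation test, adjusted p = 0.00649 each), whereas the ratio of Wfs1 to Lefty1 moved by 0.23 (adjusted p = 0.118). In neuron RNA the exact test cannot go below p = 0.1 with 3 libraries against 3, so no pair could be called. There all 12 mixed pairs had ratios without overlap between genotypes, with differences of 0.80 to 1.28, while the 3 pairs among Wfs1, Lefty1 and Spink8 overlapped, with differences of 0.06 to 0.22. Of the 6 pairs among the other genes, Pou3f1 against Nov did not overlap. The pairs share genes and are not independent of each other, and since the groups of pairs follow the calls on the same libraries, their counts describe the pattern and are no separate evidence for it.

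**Figure D3:**
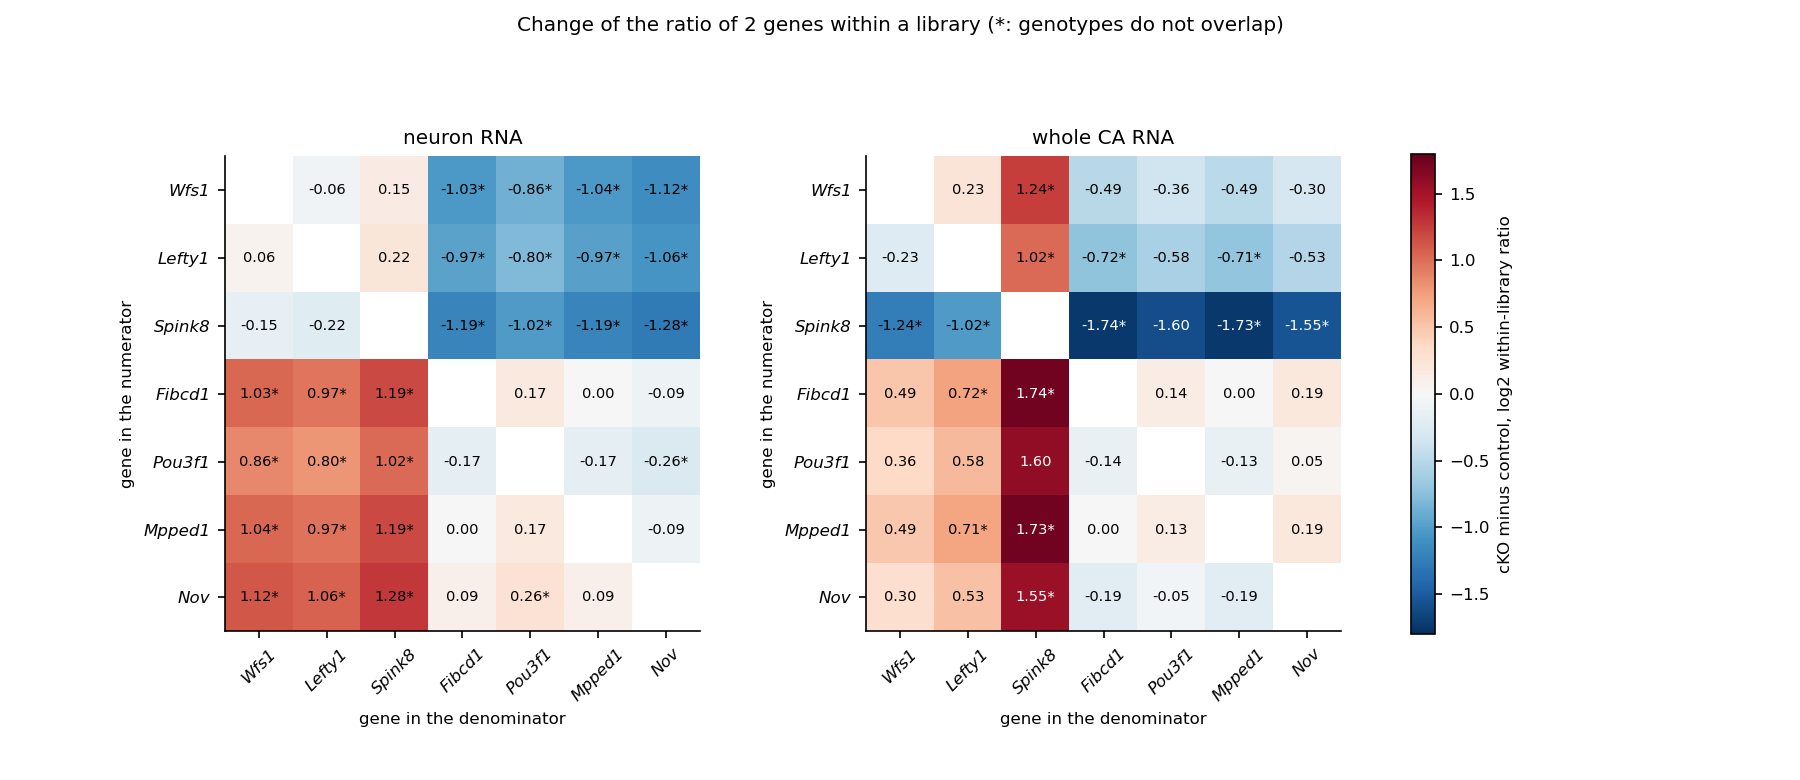
Difference between libraries labelled cKO and control in the log2 ratio of the row gene to the column gene within a library, in neuron RNA (left, n = 3 per genotype) and whole CA RNA (right, n = 6); an asterisk marks ratios without overlap between genotypes. Ratios between the 3 genes that fell and the other 4 differ by 0.30 to 1.74, ratios among the other 4 stayed within 0.26, and Spink8 stands apart from Wfs1 and Lefty1 in whole CA RNA.

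Summed over the 7 genes, the level ran from 813 to 883 CPM in control neurons and from 689 to 775 CPM in cKO neurons. In whole CA RNA it ran from 959 to 1063 CPM in controls and from 942 to 999 CPM in cKO libraries. The ranges did not overlap in neurons and overlapped in whole CA RNA; the sums were not tested.

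Across the 12 whole CA libraries the members did not form 1 group by their pattern (Pearson r of log2 CPM, given as a description; the libraries share the genotype contrast). Lefty1 followed Spink8 (r = 0.88) and Wfs1 (0.81), and Fibcd1 followed Mpped1 (0.75) and ran against Nov (−0.68). With the genotype means removed, Lefty1 and Spink8 were unrelated (−0.08) and Wfs1 ran against Spink8 (−0.85), while Wfs1 and Pou3f1 ran together (0.69) and so did Fibcd1 and Mpped1 (0.69). Of 13221 genes, those closest to each member were Serpina3n for Spink8 (r = 0.99), Msra for Lefty1 (0.95), Ptma for Pou3f1 (0.93), BC004004 for Mpped1 (0.91), Gnai1 for Nov (0.90), Tle4 for Wfs1 (0.90) and Tbc1d22a for Fibcd1 (0.90). The median r of a member with the other 6 ran from −0.45 for Mpped1 to 0.44 for Wfs1, against medians of −0.04 to 0.04 with all genes.

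Other markers of hippocampal cell types were read from lists. Of further CA1-enriched genes, Ndst4 fell by 0.39 in whole CA RNA (adjusted p = 0.0257) and differed by −0.36 in neurons (edgeR adjusted p = 0.112). Man1a (0.09 in neurons, 0.01 in whole CA RNA), Pex5l (−0.19 and 0.01) and Crym (0.13 and 0.15) were not called in either material. Of 5 markers of ventral pyramidal cells, Dcn, which encodes the proteoglycan decorin, fell in neurons (−1.92, adjusted p = 4.83e-05) and in whole CA RNA (−2.25, adjusted p = 2.63e-09), and the other 4 were not called.

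Some markers of other hippocampal cell types were also lower in the same CA libraries, which do not show in which region the reads arose. Over all genes tested, edgeR called 2% lower in neuron RNA and 2.79% lower in whole CA RNA. Of 6 dentate granule markers 4 fell in neuron RNA (Lct −1.56, Dsp −0.78, C1ql2 −0.76 and Tdo2 −0.70) and 2 in whole CA RNA (Lct −1.86 and Dsp −0.96, the latter at an adjusted p of 0.0472). Prox1 (−0.02 in neurons, −0.35 in whole CA RNA) and Pdzd2 (−0.52 and −0.21) were not called by edgeR in either material. DESeq2 called 5 of the 6 in neurons and 1 in whole CA RNA. Of 5 CA2 markers 1 fell in neurons (Amigo2 −0.62) and 3 in whole CA RNA (Amigo2 −0.70, Pcp4 −0.74 and Cacng5 −0.53). In edgeR 4 of them in neurons and 5 in whole CA RNA had an unadjusted p under 0.05, and DESeq2 called 1 and 4. Of 5 CA3 markers edgeR called 0 in neurons, with 3 at an unadjusted p under 0.05 and 2 called by DESeq2, and 3 fell in whole CA RNA (Iyd −1.42, Cpne4 −0.47 and Grik4 −0.42). Among 5 genes of excitatory neurons, the transcription factor gene Neurod6 fell in both materials (−2.24 in neurons and −1.78 in whole CA RNA) and Nrgn in neurons (−0.43), and the other 3 were not called in either material.

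Of 8 interneuron genes edgeR and DESeq2 called 0 in either material, and 0 in neurons and 1 in whole CA RNA had an unadjusted p under 0.05. Their summed level ran from 540 to 636 CPM in control and 539 to 693 CPM in cKO neurons. In neuron RNA none of the astrocyte, oligodendrocyte, microglia or endothelial markers tested was called by edgeR or DESeq2, and 0 had an unadjusted p under 0.05. Aqp4 of 4 astrocyte markers fell by 0.38 (adjusted p = 0.0122) and Cx3cr1 of 5 microglia markers fell by 0.22 (adjusted p = 0.0434) in whole CA RNA. All 5 microglia markers had a difference below 0 there, 4 had an unadjusted p under 0.05 and DESeq2 called 3. The summed microglia level ran from 262 to 322 CPM in controls and from 233 to 257 CPM in cKO libraries, and the summed astrocyte level from 1228 to 1451 CPM and from 1160 to 1275 CPM. Both tools called 0 of 4 oligodendrocyte, 0 of 3 endothelial and 0 of the 3 choroid plexus markers tested in whole CA RNA, with 0 at an unadjusted p under 0.05. Of 5 genes of all neurons, 0 were called in neurons by either tool, and Map2 fell by 0.32 in whole CA RNA. Of 3 markers of the subiculum and neighbouring cortex, edgeR called 0 in either material; in neurons 1 had an unadjusted p under 0.05 and DESeq2 called 1. The part of these shifts in the members' results was not tested.

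H3K4me3 was measured as the length covered by peaks over each gene span with 2500 bp on either side, in log2(bp + 100), compared over all genes with limma. This region was chosen after the data were seen, because the promoter table held starts for 3 members only. The covered length was shorter at 6 of the 7 genes, against 17.9% of 24729 spans called shorter, and at all 7 every cKO library lay below every control library, which 23.3% of spans showed. The genes whose RNA was not called were among them. Peaks were called against 1 input per genotype, so input and genotype cannot be told apart. The H3K4me3 libraries held 24.4 to 27.8 M tags.

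Nov, whose RNA differed by 0.01 in neurons, had 3367, 3948, 3467 and 3459 bp covered in controls and 1401, 1708, 1585 and 1550 bp in cKO libraries. The covered length fell by 1.14 on the log2 scale (SE 0.07, adjusted p = 0.00012). Pou3f1 had 6939 to 7822 bp in controls and 3644 to 4314 bp in cKO libraries, and fell by 0.91 (SE 0.06, adjusted p = 0.000166). Mpped1 fell by 0.85 (SE 0.14, adjusted p = 0.00552), from 9060 to 9816 bp in controls to 4407 to 6962 bp, and Fibcd1 by 0.62 (SE 0.11, adjusted p = 0.00879), from 5095 to 6706 bp to 3182 to 4251 bp. All 4 genes thus had shorter H3K4me3 without a called change of RNA.

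Lefty1 had 4329, 4548, 4536 and 3826 bp covered in controls and 1182, 1832, 1692 and 1335 bp in cKO libraries, and fell by 1.47 (SE 0.14, adjusted p = 0.000524). Wfs1 fell by 0.67 (SE 0.14, adjusted p = 0.017), from 2133 to 3286 bp in controls to 1451 to 1867 bp. Spink8, the member with the largest fall of RNA, had 1556, 1398, 1288 and 1353 bp in controls and 0, 598, 871 and 811 bp in cKO libraries. Its difference of −1.59 was not called (SE 0.70, adjusted p = 0.168), and without cKO library 1, which had no peak there, it was −0.81 and called (adjusted p = 0.00705). Over the 15468 genes tested in both assays, 4.46% of the 3651 genes with shorter H3K4me3 were also lower in neuron RNA, against 2.26% of all, and 46.6% of the 350 genes lower in neuron RNA had shorter H3K4me3, against 23.6% of all.

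**Figure D4:**
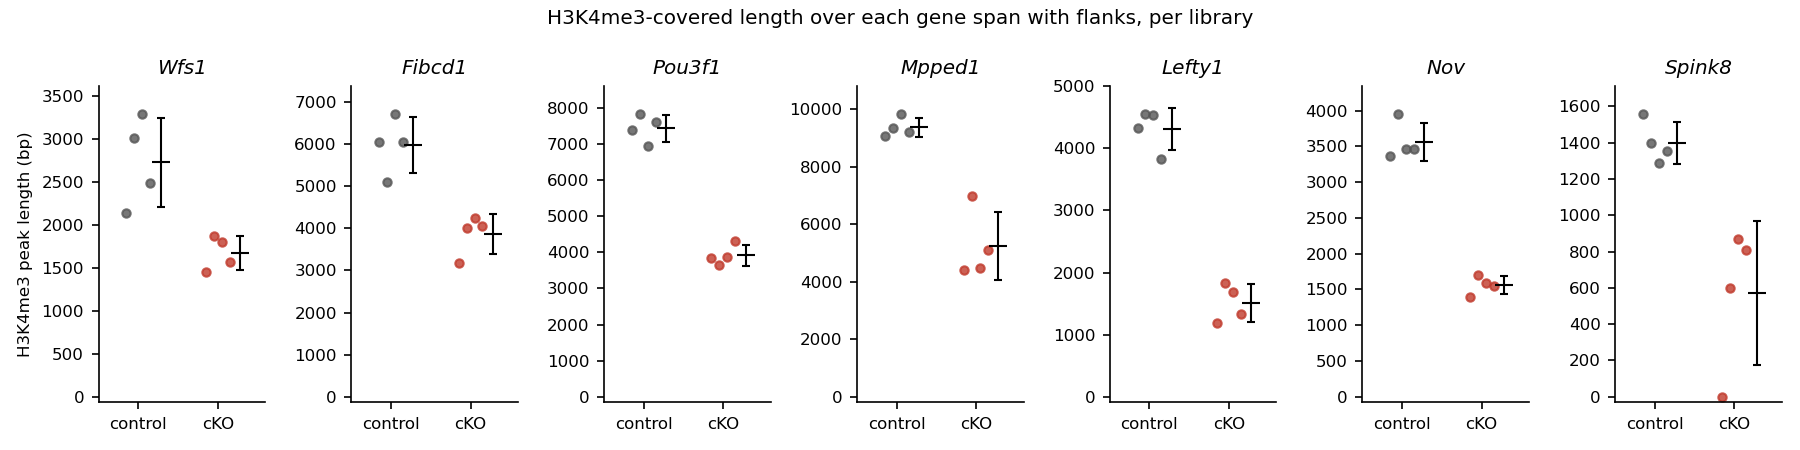
Length covered by H3K4me3 peaks over each gene span with 2500 bp on either side (vertical axes in bp, each panel with its own range), in 4 control and 4 cKO libraries of CA neurons; points are libraries, the bar and whiskers the mean and SD. At each of the 7 genes the cKO libraries lie below the control libraries, and 1 Spink8 cKO library is at 0.

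At the start sites, within 2500 bp on either side, H3K4me3 was called shorter at 3 of the 4 starts of Wfs1, Fibcd1 and Mpped1, against 21.9% of 18245 starts, and at all 4 every cKO library lay below every control library, which 27.1% of starts showed. The second Mpped1 start, whose upstream run holds 2 CG, had 2947, 3301, 2829 and 3056 bp covered in controls and 261, 904, 173 and 310 bp in cKO libraries. The covered length in this window fell by 2.80 (SE 0.36, adjusted p = 0.00207). The peaks at or beside this second start, at whole length, came to 1040 to 1899 bp in controls and 0 to 552 bp in cKO libraries. Other peaks in the window thus held part of the length covered in controls. The CG-rich first start of the same gene had 2897 to 3109 bp in controls and 2493 to 2895 bp in cKO libraries, a difference of −0.14 (SE 0.05, adjusted p = 0.0935). Taken at whole length, the peaks at or beside this start came to 3672 to 4152 bp in controls and 2366 to 2895 bp in cKO libraries. The window thus cut off part of the control peaks, and whole lengths were not tested. Within 5000 bp, a window that holds more of these peaks and also the second start, the first start was called (−0.81, adjusted p = 0.000125). The difference between both starts was not tested, and their windows overlap by a short stretch. Fibcd1 fell by 0.45 (SE 0.08, adjusted p = 0.00688) and Wfs1 by 0.56 (SE 0.15, adjusted p = 0.0333). The call of Wfs1 was lost without any 1 of 6 of the 8 libraries (cKO 1, 3 and 4, control 2, 3 and 4; adjusted p from 0.0501 to 0.0836). Within 1000 bp of the start only the second Mpped1 start was called (−2.19, adjusted p = 0.0147), with Fibcd1 at −0.01 and Wfs1 at −0.14. Whole peaks at the Fibcd1 start came to 3946 to 4340 bp in controls and 2065 to 2303 bp in cKO libraries. Peaks of such lengths can fill most of this narrow window in both genotypes, so it could show little change at Fibcd1.

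Few members were called for the other marks. On simulated data the span tests recovered 0.4% (H3K27ac), 1.35% (H3K9ac) and 4.1% (H3K4me1) of changes of 0.5 on the log2 scale. For the tests at starts the shares were 21.2%, 24.8% and 10%. A member not called may thus still have changed by that size. H3K4me1 was called shorter at 1 of the 4 starts, against 1.19% of all starts. At Wfs1 it covered 4841, 4861, 4847 and 4757 bp in controls and 3818, 3647, 3275 and 3349 bp in cKO libraries, without overlap. It fell by 0.45 (SE 0.07, adjusted p = 0.0231), and the call was lost without cKO 4 or without control 2, 3 or 4 (adjusted p from 0.0553 to 0.0681). Over gene spans, with 2.63% of all called shorter, Wfs1 was again the only member called (−0.64, SE 0.12, adjusted p = 0.039). That call was kept without cKO 1 only and lost without any of the other 7 libraries (adjusted p up to 0.1).

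H3K27ac, a mark of active promoters and enhancers, was called by limma at 0 of the 4 starts and 0 of the 7 spans, with 0.433% of starts and 0.567% of spans called. At an unadjusted p under 0.05 stood 3 starts and 2 spans. At 2 of the 4 starts every cKO library lay below every control library, as at 10.8% of all starts. At 1 start every cKO library lay above every control library, as at 3.09% of all starts. This was the second Mpped1 start, with 3991 to 4597 bp in controls and 4683 to 4899 bp in cKO libraries. At 3 of the 7 spans every cKO library lay below every control library, as at 9.63% of all spans. The lowest unadjusted p was at the Wfs1 start, with 2949, 2198 and 1981 bp in controls and 1778, 1583, 1569 and 1559 bp in cKO libraries, without overlap (−0.51, adjusted p = 0.235). H3K9ac, a mark of active promoters, was called by limma at 0 of the 4 starts, with 2 at an unadjusted p under 0.05 and 0.951% of all starts called. Over spans it was called shorter at 1 of 7, Lefty1, with 0.445% of all called shorter. Every cKO library lay below every control library at 3 of the 7 spans, as at 8.68% of all spans. Lefty1 had 3849, 4111, 4136 and 3970 bp of H3K9ac in controls and 2423, 2488 and 2654 bp in cKO libraries. It fell by 0.65 (SE 0.08, adjusted p = 0.0251), and the call was kept without control 1 only and lost without any of the other 6 libraries (adjusted p from 0.0629 to 0.174).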

How the data were processed

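The analysis used 18 RNA and 30 chromatin immunoprecipitation libraries, grouped by the tissue and genotype labels. The authors deposited whole-number read counts per Ensembl gene; the aligner and counter are not given in the sources used here, and the builds are mm10 and GRCm38 per the submitters' processing notes. Peaks were called with MACS 2.1.0.20140616 (2.1.1.20160309 for H3K4me3), with broad calling for H3K4me1 only, and their q values are stored as −log10, per the file headers.

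The 7 members and the marker lists were chosen by name with earlier results of these data known. Counts were tested with edgeR 4.0.16 (R 4.3.3; TMM, filterByExpr, quasi-likelihood test without a replicate block), with DESeq2 1.42.0 as an alternative. The materials were compared in 1 fit of 18 libraries. Covered length within 2500 bp of a RefSeq start or gene span (GRCm38.p6) was tested with limma 3.58.1 on log2(bp + 100) where at least 3 libraries had a peak. All p-values were Benjamini-Hochberg adjusted over all features, with calls at 0.05. Within-library ratios used a pseudocount of 0.5 reads and an exact permutation test. The labels do not say that replicates are separate animals, so p-values measure the spread between these libraries, which may be technical. The isolation of neuron RNA is not given in the sources used here.

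Named genes are the 7 members, Setd1b, up to 4 genes called per list and comparison, and the non-member closest to each member by Pearson r. The counts of 1 list, of further CA1-enriched genes, are not reported here. Of the count identifiers, 99.3% (neuron) and 98.9% (whole CA) had a symbol. Alternatives covered scaling, filters, window size, peak threshold, lanes, the replicate block and leaving out each library; gene spans and their alternatives were added after the data were seen. The tests were tried on simulated data with a limit on false calls. A first single draw exceeded that limit for neuron RNA and for H3K9ac spans. Judged over 20 pooled draws, all kept, every comparison stayed under it. The pooled shares of false calls were highest for neuron RNA (10.9%), H3K27ac spans (9.5%) and H3K9ac spans (7.85%). The tests of the other marks and regions also lay above the nominal rate.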

Additional observations from a re-analysis of the deposited data

Results flagged for a closer look

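Among 80 groups of 4 or 6 libraries, 3 held 1 library that stood far from the rest, judged by its gap to the nearest library over the range of the group; chance flags about 1 group in 20. In whole CA RNA, Mpped1 stood at 368 CPM in control 5 against 340 to 347 CPM in the other control libraries. H3K27ac covered 1778 bp at the Wfs1 start in cKO 1 against 1559 to 1583 bp in the other cKO libraries. H3K4me1 covered 3184 bp at the Fibcd1 start in control 1 against 3975 to 4088 bp in the other control libraries. None of these 3 values belongs to a called difference between genotypes.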

How the results depend on the processing

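Of 896 member values recomputed under alternatives, 826 kept their direction and side of the threshold, 36 lost the threshold, 8 gained it and 26 changed sign. Scaling by excitatory genes gave 0.15 for Fibcd1 and 0.15 for Mpped1 in neurons, and 0.068 for Pou3f1 and 0.011 for Nov in whole CA RNA; library size alone gave 0.11 for Lefty1 between control materials. The first lane gave 1 member called and Pou3f1 at 0.027. Without a filter the interaction called 1 member. Windows of 1000 bp gave 1 start called for H3K4me3 (first Mpped1 start 0.034), 0 for H3K4me1 and 0.0020 for H3K9ac at Fibcd1; windows of 5000 bp gave −0.13 for H3K4me1 at Fibcd1. Peaks with −log10 q of at least 5 gave −0.052 for H3K27ac at the second Mpped1 start and 0.037 for H3K9ac at Wfs1; the H3K4me1 members could not be fitted there. The causes were not tested.

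Leaving out 1 library at a time, neuron Fibcd1 ran from −0.17 to 0.020, neuron Nov from −0.044 to 0.070 and whole CA Pou3f1 from −0.13 to 0.060. The interaction called 0 to 1 members, and so did H3K4me1 at starts (0 to 1), H3K4me1 over spans (0 to 1) and H3K9ac over spans (0 to 1). Over spans, H3K4me1 ran from −0.048 to 0.021 at Lefty1 and from −0.038 to 0.15 at Spink8, H3K27ac from −0.062 to 0.099 at Spink8 and H3K9ac from −0.077 to 0.27 at Spink8.

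Replicate numbers did not pair the libraries (same-number correlations −0.37 to 0.47 in neurons, −0.08 to 0.30 in whole CA RNA). With the replicate block, 0 of 21 ratio pairs were called (an exact sign-flip test that cannot go below p = 0.03125 before adjustment, so the design left little room for calls), and 0 members for H3K4me1 at starts (0), H3K4me1 over spans (0) and H3K9ac over spans (0). Over all genes, neuron calls numbered 539, against 326 with excitatory scaling, 327 with the block and 840 by DESeq2; whole CA calls numbered 640, against 1245 with excitatory scaling, 839 with the block, 891 by DESeq2, and 207 and 224 within lanes.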
